A study of Mus musculus with 30 samples.

Results

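Alkylation damage repair was examined through 9 genes: Mgmt, Alkbh2, Alkbh3, Mpg, Apex1, Polb, Xrcc1, Lig3 and Parp1. They were taken by symbol from a fixed list of known repair functions, which was chosen with earlier results of these data known. All 9 were present in each of 3 expression tables, among 21039 genes in all. The tables come from a C57BL/6 mouse model of therapy-related myeloid neoplasms in which ENU (N-ethyl-N-nitrosourea, which transfers ethyl groups to DNA bases) was given or withheld.

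LSK cells (Lin-, Sca1+, Kit+, the bone marrow fraction that holds stem and early progenitor cells) were sorted before disease, about 2 months after transplantation for the transplanted groups, from 4 groups of 3 libraries. EAP with ENU and EAP cells both carried haploinsufficiency for Egr1 and Apc and a Trp53 shRNA in marrow placed into WT recipients, and ENU had been given to donor and recipient in the first group only. Transplanted WT cells carried a luciferase shRNA and no ENU, and WT cells were neither transplanted nor treated. Diseased bone marrow came from 6 mice with AML and 6 with MDS, all recipients of Egr1- and Apc-haploinsufficient marrow. The AML mice had a Trp53 shRNA, and 3 had ENU to donor and recipient (AML 1, 4 and 5), 1 to the recipient only (AML 6) and 2 no ENU (AML 2 and 3). All 6 MDS mice had a luciferase shRNA and ENU to donor and recipient, so disease and Trp53 knockdown cannot be told apart. Mesenchymal stromal cells were cultured from compact bone to passage 1 or 2, in 3 libraries from mice injected with 100 mg/kg ENU 1 month earlier and 3 libraries from mice mock-injected with 10% ethanol. The LSK and marrow values are a normalised signal per gene and the stromal values are TPM (read shares scaled by transcript length). No label states mouse age or sex, or that replicates came from separate mice outside the marrow set, so p-values measure the spread between these libraries.

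Alkylating agents leave a range of lesions that separate pathways remove. Mgmt takes the alkyl group off guanine directly and is used up by doing so, and Alkbh2 and Alkbh3 are dioxygenases that oxidise alkyl groups off adenine and cytosine. Mpg, the alkyladenine glycosylase, starts base excision repair by cutting out damaged purines, Apex1 nicks the strand at the abasic site, Polb fills the gap, the scaffold Xrcc1 holds Lig3 in place to seal it, and Parp1 senses the open break. In blood-forming cells a low Mgmt level is known for leaving cells sensitive to such agents.

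By position in the mm10 build, the genes lie on 7 chromosomes, with Mgmt (chr7:136894614-137130266) and Xrcc1 (chr7:24546289-24573440) both on chromosome 7 and Mpg (chr11:32226505-32232700) and Lig3 (chr11:82781108-82804274) both on chromosome 11. The RefSeq promoter table for GRCm38.p6 held 8 of the 9 genes. The 250 bases before the start are shown for the gene that repairs guanine directly and for the 4 genes of the excision pathway whose values in AML 3, 4, 5 and 6 lay above every MDS library, none of which passed the test described below. Capitals mark CACGTG and GGGCGG, searched on both strands, where GGGCGG reads CCGCCC on the other strand.
Mgmt (chr7:136894336-136894585, + strand): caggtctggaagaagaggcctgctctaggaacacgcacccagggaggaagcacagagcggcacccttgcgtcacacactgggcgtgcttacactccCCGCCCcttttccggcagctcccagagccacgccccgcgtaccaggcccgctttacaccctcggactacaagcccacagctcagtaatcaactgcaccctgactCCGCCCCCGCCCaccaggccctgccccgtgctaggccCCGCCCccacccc
Apex1 (chr14:50924699-50924948, + strand): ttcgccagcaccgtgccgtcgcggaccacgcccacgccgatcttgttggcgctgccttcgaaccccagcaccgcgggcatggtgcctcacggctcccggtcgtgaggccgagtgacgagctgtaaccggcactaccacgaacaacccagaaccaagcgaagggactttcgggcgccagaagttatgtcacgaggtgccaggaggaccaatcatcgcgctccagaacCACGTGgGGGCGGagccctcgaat
Xrcc1 (chr7:24546449-24546698, + strand): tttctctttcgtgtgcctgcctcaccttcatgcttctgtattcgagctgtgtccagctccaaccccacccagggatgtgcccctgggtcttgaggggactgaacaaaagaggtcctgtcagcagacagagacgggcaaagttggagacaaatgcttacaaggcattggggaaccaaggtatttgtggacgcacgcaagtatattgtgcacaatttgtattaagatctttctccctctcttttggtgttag
Lig3 (chr11:82780859-82781108, + strand): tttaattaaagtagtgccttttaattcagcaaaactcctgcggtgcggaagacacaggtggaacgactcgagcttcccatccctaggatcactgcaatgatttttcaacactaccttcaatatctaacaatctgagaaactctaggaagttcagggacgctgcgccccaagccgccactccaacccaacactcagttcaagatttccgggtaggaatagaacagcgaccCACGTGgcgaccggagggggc
Parp1 (chr1:180568641-180568890, + strand): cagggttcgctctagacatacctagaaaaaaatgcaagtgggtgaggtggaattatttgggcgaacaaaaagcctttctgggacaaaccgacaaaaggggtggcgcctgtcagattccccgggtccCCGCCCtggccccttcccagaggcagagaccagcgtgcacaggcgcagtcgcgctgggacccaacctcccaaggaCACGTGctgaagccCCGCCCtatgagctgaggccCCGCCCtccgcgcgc
CACGTG occurred 1 time each in the windows of Apex1, Lig3 and Parp1 and in none of the other 5 member windows, and 6.05% of 27025 promoter windows of the same length held it. GGGCGG occurred 4 times in the Mgmt window, 3 times each in those of Mpg and Parp1 and 1 time each in those of Alkbh2 and Apex1, so 5 of 8 member windows held it, and 32.9% of all windows did. These matches describe letters only, and the Xrcc1 window lies inside the gene span given above, because the start RefSeq lists there is further downstream.

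Some facts about the libraries touch the results below. In LSK cells Kit was at 65.3 to 597.7 and Ly6a, which encodes Sca1, at 78.0 to 245.0. Stromal cells had Col1a1 at 361.3 to 2145.7 TPM, with the leukocyte gene Ptprc at 1.29 TPM at most. Other listed genes were less clear there. The leukocyte gene Lcp1 reached 10.8 TPM, the neutrophil marker S100a8 49.4 TPM and the macrophage marker Cd68 91.4 TPM. Among stromal markers Thy1 fell to 0.708 TPM and Lepr to 2.65 TPM, so some blood cells in these cultures are not excluded. In LSK cells, WT 2, transplanted WT 3 and EAP 1 stood apart, with summed values of 1130054 to 1437201 against 808377 to 1034526 in the other 9. Their deviation from the mean of the other libraries of their group fell with transcript length (Spearman rho across genes -0.52 to -0.41, against -0.13 to 0.49 in the others). The upper values came from libraries whose reference mean held WT 2, transplanted WT 3 or EAP 1, and EAP with ENU ran -0.13 to 0.10. EAP 1 also has a transplant label that names WT marrow. In bone marrow, AML 3 had a B cell marker level of 7.51 (mean log2 over 7 of 8 listed genes), against 4.27 at most in MDS, and AML 4 and AML 5 had T cell levels of 6.81 and 6.76 (10 of 10 genes), against 3.68 at most in MDS. AML 3 also had the lowest neutrophil level at 4.17 and erythroid level at 2.31, with none of the listed markers at 0. Trp53 itself was at 65.5 to 172.6 in both EAP groups of LSK cells, against 212.8 to 370.4 in both WT groups, and at 23.0 to 58.0 in AML, against 43.2 to 97.9 in MDS. Egr1 did not separate the labelled genotypes, at 57.7 to 308.0 in EAP with ENU and 75.0 to 840.5 in EAP (median 329.2), against 133.0 to 188.2 in transplanted WT and 166.7 to 212.4 in WT. Apc overlapped too, at 5.41 to 10.99 in both EAP groups, against 4.23 to 13.4 in both WT groups, so EAP is used here as the name the labels give. Over the genes of the marrow table, the spacing of the values implied 17341986 to 21698808 reads per library. Reads outside those genes are not counted. Depth is unknown for the LSK and stromal libraries. Stromal libraries summed to 924162 to 939600 TPM.

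Compared per kilobase of transcript, Apex1 was the highest of the 9 in LSK cells, at 330.8 ± 59.6 (SD over 12 libraries), and its lowest library at 217.7 lay above every value of the next gene, Parp1, at 51.4 ± 11.6. Parp1, Alkbh3, Polb and Xrcc1 followed with ranges that each overlapped the next, and Alkbh2 was the lowest at 1.92 ± 2.69. In bone marrow the highest per kilobase was Parp1 at 59.6 ± 47.0 and the lowest Mgmt at 1.17 ± 1.21, and every neighbour in that order overlapped the next. In stromal cells Apex1 was at 101.4 ± 17.8 TPM and Mgmt came next at 65.3 ± 5.24 TPM (SD, n = 6), clear of Alkbh3 below it. Mgmt was thus near the top in stromal cells and at the bottom in diseased marrow. The tables were normalised separately, so only the order within each is given.

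The first comparison, EAP with ENU against EAP in LSK cells, addresses whether exposure left a change in these genes before disease. None of the 9 members passed the limma test across all genes (adjusted p of 0.92 to 1.00), and none was below an unadjusted p of 0.05. The background was 0% of 11730 genes called, with 5.26% below the unadjusted threshold. Log2 differences were positive for 6 members and negative for 3, with a median of 0.15 against 0.03 over all genes. No member had groups that did not overlap, where 12.7% of all genes did.

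Mgmt was at 31.1, 25.8 and 28.0 in EAP with ENU 1 to 3, against 35.8, 6.44 and 38.3 in EAP 1 to 3. The low EAP 2 library lay below every treated library and the other two lay above them, so the groups overlapped. The log2 difference was 0.41 (SE 0.51, 95% interval -0.71 to 1.52), and without EAP 2 it was -0.38. Alkbh3 was at 71.8, 61.2 and 64.2 in EAP with ENU libraries, against 85.5, 65.0 and 62.0 in EAP libraries, which overlapped. Alkbh2 was near the floor of the table in both groups, at 2.17, 1.32 and 0.995 in EAP with ENU, against 10.9, 2.56 and 0 in EAP. Its 10.9 came from EAP 1, one of the libraries that stood apart.

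Along the excision pathway the values were as close. Mpg ran 19.0 to 21.9 in EAP with ENU, against 16.8 to 41.8 in EAP, and the 41.8 was again EAP 1. Apex1 was at 442, 483 and 438 in EAP with ENU, against 524, 269.7 and 402 in EAP, inside the span of the untreated libraries. The log2 differences of Polb (0.0049), Xrcc1 (0.15), Lig3 (0.24) and Parp1 (0.29) had 95% intervals that all included 0 and reached 1.07 at most. Lig3 and Parp1, the members with the longest transcripts, were lowest in EAP 1, at 13.3 and 119. Without the 3 libraries that stood apart no member passed, and Mpg, Alkbh2, Alkbh3 and Lig3 changed sign.

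EAP with ENU against transplanted WT gave 0 of 9 members by limma, at 0.0171% of all genes called, and none below an unadjusted p of 0.05, where 3.21% of genes were. Mgmt was at 25.8 to 31.1 in EAP with ENU, against 36.2 to 41.6 in transplanted WT. Alkbh3 was likewise at 61.2 to 71.8 in EAP with ENU, against 72.3 to 91.3 in transplanted WT. These 2 of 9 members had groups that did not overlap, where 18.5% of all genes did, a share close to theirs (log2 differences -0.46, SE 0.51, and -0.33, SE 0.20, both with an adjusted p of 1.00). Each SE pools the spread of all 12 LSK libraries, and EAP 2, outside this comparison, had Mgmt at 6.44. Over the alternative fits the lowest adjusted p by limma was 0.51 for Mgmt and 0.62 for Alkbh3. Of 10 marker and proliferation lists, 3 also had sums that did not overlap. LSK progenitor markers (10 of 10 measured) summed to 2055.9 to 2487.8 in EAP with ENU, against 2579.1 to 2687.3 in transplanted WT. T cell markers (9 of 10) summed to 55.9 to 95.8 in EAP with ENU, against 117.9 to 211.8 in transplanted WT, and B cell markers (5 of 8) to 91.6 to 106.6 in EAP with ENU, against 107.7 to 264.5 in transplanted WT, with no measured marker at 0 in either group. Sums follow the highest genes of a list. By mean log2 level only the T cell list stayed apart of these, at 1.759 to 2.327 in EAP with ENU, against 2.412 to 3.345 in transplanted WT. LSK progenitor levels (6.813 to 7.082 in EAP with ENU, against 6.825 to 7.173) and B cell levels (2.831 to 3.328, against 2.781 to 3.974) overlapped. The part of these lists in the Mgmt and Alkbh3 values was not tested. The groups differ in genotype, shRNA and ENU together.

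EAP without ENU against transplanted WT gave no member called, at 0.0256% of genes called, none below an unadjusted p of 0.05, where 3.61% of genes were, and none with groups that did not overlap, where 6.98% of genes did. Mgmt had a log2 difference of -0.87 there (SE 0.51, adjusted p = 1.00), with EAP 2 the lowest of the libraries, and it was -0.09 without EAP 2 and -1.29 without EAP 3. This comparison and the preceding one share the transplanted WT libraries. Transplanted WT against WT also gave 0 of 9 members by limma, with 0.0256% of genes called, and none below an unadjusted p of 0.05, where 7.29% of genes were. Apex1 was at 445, 439 and 456 in transplanted WT, against 318, 364 and 338 in WT, the only member there with groups that did not overlap (16.1% of genes did). Its log2 difference was 0.40 (SE 0.25, adjusted p = 0.80), and 17 of 18 proliferation genes had positive log2 differences there, their summed value being 4609.6 to 6313 in transplanted WT, against 3677.7 to 4075.6 in WT. Another 3 of the 10 lists had sums that did not overlap there. LSK progenitor markers summed to 2579.1 to 2687.3 in transplanted WT, against 3103.1 to 3862.1 in WT, NK cell markers (7 of 7) to 935.9 to 1930.9 in transplanted WT, against 513.0 to 733.8 in WT, and neutrophil markers (9 of 11) to 2919.2 to 6878.2 in transplanted WT, against 1975.3 to 2099.9 in WT. By mean log2 level NK cell markers overlapped, at 3.008 to 3.926 in transplanted WT, against 2.08 to 3.052 in WT. T cell levels (2.412 to 3.345 in transplanted WT, against 1.76 to 1.998) and monocyte and macrophage levels (3.401 to 3.969, against 2.84 to 3.357) did not. The part of these lists in the Apex1 value was not tested.

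**Figure D1:**
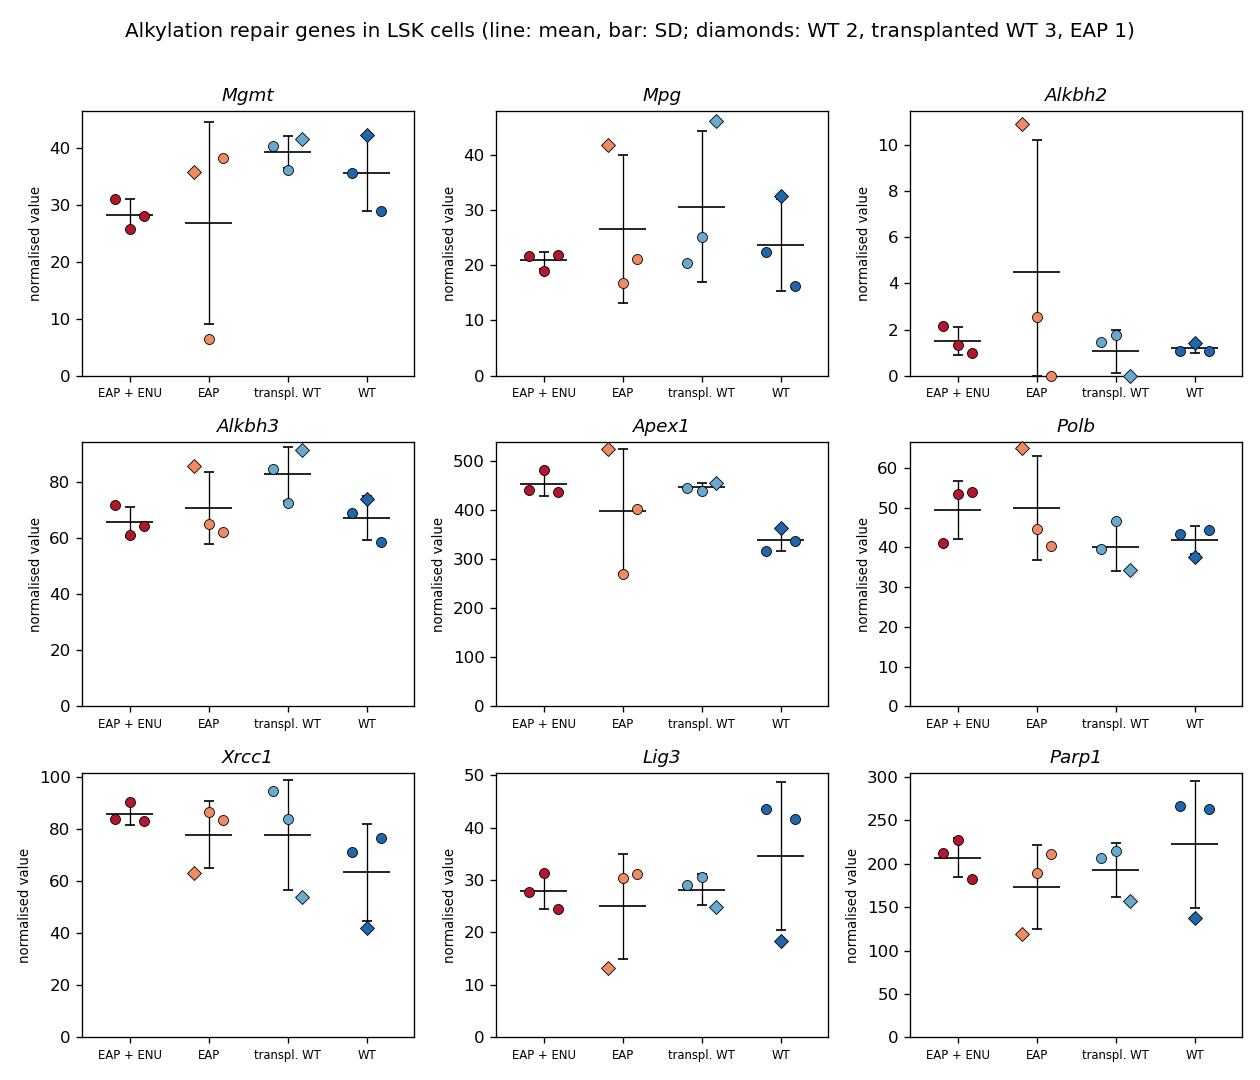
Normalised value of each of the 9 genes in LSK cells (vertical axis from 0) by group (horizontal axis), 1 point per library, with the mean and SD of 3 libraries; bars are cut at 0 and diamonds mark WT 2, transplanted WT 3 and EAP 1. Mgmt in EAP 2 sits at 6.44, below every other LSK library, and Apex1 in all 3 transplanted WT libraries sits above all 3 WT libraries.

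In diseased bone marrow, AML with ENU against AML without ENU set 4 libraries (AML 1, 4, 5 and 6) against 2 (AML 2 and 3). None of the 9 members passed the limma test, with 0.0976% of 11275 genes called, none was below an unadjusted p of 0.05, where 11% of genes were, and none had groups that did not overlap, where 9.5% of genes did. AML 2 and AML 3, the libraries without ENU, lay far apart for most members. Fewer cells of a type and less RNA per cell cannot be told apart in bulk marrow.

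Mgmt was at 1.20, 2.85, 13.3 and 5.93 in AML 1, 4, 5 and 6, against 4.67 and 0.0478 in AML 2 and AML 3. The AML 3 value is 1 read, against 22 to 298 reads in the other AML libraries and 28 to 57 in MDS. AML 5 was the highest of the 12 marrow libraries and AML 3 the lowest. The log2 difference was 1.14 (SE 0.72, adjusted p = 0.62). Apex1 was at 8.96, 19.2, 16.7 and 13.4 in AML 1, 4, 5 and 6, against 7.50 and 51.1 in AML 2 and 3, so the libraries without ENU held both the lowest and the highest value. Parp1 was at 140.2, 344, 379 and 300.0 in the ENU libraries, against 82.5 and 716 in the libraries without ENU, which again held both ends.

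Alkbh2, Xrcc1 and Lig3 were also highest in AML 3, at 17.8, 138 and 136 with AML 2 at 2.34, 50.7 and 45.8. Polb differed, since AML 2 was highest at 41.0 and AML 3 was at 17.8. Without AML 2, which leaves AML 3 as the lone library without ENU, 4 members and 20.5% of all genes passed by limma, a fit that assumes the lone library to vary like the others. Mgmt was higher with ENU (2.36, adjusted p = 0.048) and Alkbh2 (-1.78, 0.022), Apex1 (-1.79, 0.006) and Xrcc1 (-1.04, 0.046) were lower with ENU there, and those differences describe AML 3. Without AML 3 no member passed and all 4 signs turned, with log2 differences of -0.08 for Mgmt, 0.72 for Alkbh2, 0.82 for Apex1 and 0.39 for Xrcc1.

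AML was next set against MDS. Log2 differences were positive for 8 of 9 members, with a median of 0.70 against 0.04 over all genes, yet none passed the limma test, where 3.2% of 11273 genes passed. That background of 361 genes shifted when single libraries were left out. It was 2472 without AML 1, 644 without AML 2, 267 without AML 3 and 334 without AML 4. It was 0 without AML 5, without AML 6 or without MDS 1, 2, 3, 5 or 6, and 1 without MDS 4. At an unadjusted p under 0.05 there were 6 of 9 members, Alkbh2, Apex1, Polb, Xrcc1, Lig3 and Parp1, all higher in AML, where 29.3% of all genes were below it. No member had groups that did not overlap, where 3.84% of genes did.

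Parp1 ranged from 82.5 to 716 in AML with a median of 322, against 101 to 169.5 in MDS with a median of 134. AML 3, 4, 5 and 6 lay above every MDS library, AML 1 within them and AML 2 below them. The log2 difference was 0.98 (SE 0.42, adjusted p = 0.15). Lig3 ranged from 45.8 to 136 in AML with a median of 79.4, against 39.9 to 58.2 in MDS with a median of 42.0, and again AML 3 to 6 were above all of MDS while AML 1 and 2 were inside. Its log2 difference was 0.72 (SE 0.25, adjusted p = 0.094). Xrcc1, its scaffold partner, had the same 4 libraries above MDS, at 55.2 to 138, against 37.9 to 54.0 in MDS, with a log2 difference of 0.70 (SE 0.24, adjusted p = 0.096).

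Apex1 was at 13.4 to 51.1 in AML 3 to 6, against 7.26 to 8.90 in the 6 MDS libraries. AML 1 at 8.96 lay just above MDS and AML 2 at 7.50 lay inside it. The log2 difference was 0.91 (SE 0.36, adjusted p = 0.13). Alkbh2 ranged from 2.34 to 17.8 in AML, against 1.43 to 2.83 in MDS, with AML 2 and AML 6 inside MDS and the log2 difference at 1.03 (SE 0.38, adjusted p = 0.11). Polb ranged from 16.5 to 41.0 in AML, against 13.0 to 19.0 in MDS, and here AML 2 was the highest (log2 difference 0.50, SE 0.22, adjusted p = 0.15).

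The other 3 members did not share the layout. Mpg was the member with a negative value, at 13.9 to 24.7 in AML, against 18.8 to 33.9 in MDS (log2 difference -0.40, SE 0.19, adjusted p = 0.18). Alkbh3 ranged from 18.8 to 57.7 in AML, against 16.5 to 32.1 in MDS, and only AML 3 and AML 6 exceeded MDS (0.39, SE 0.25, adjusted p = 0.29). Mgmt ranged from 0.0478 to 13.3 in AML, against 1.54 to 3.04 in MDS, with 3 libraries above and 2 below (0.44, SE 0.51, adjusted p = 0.57).

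**Figure D2:**
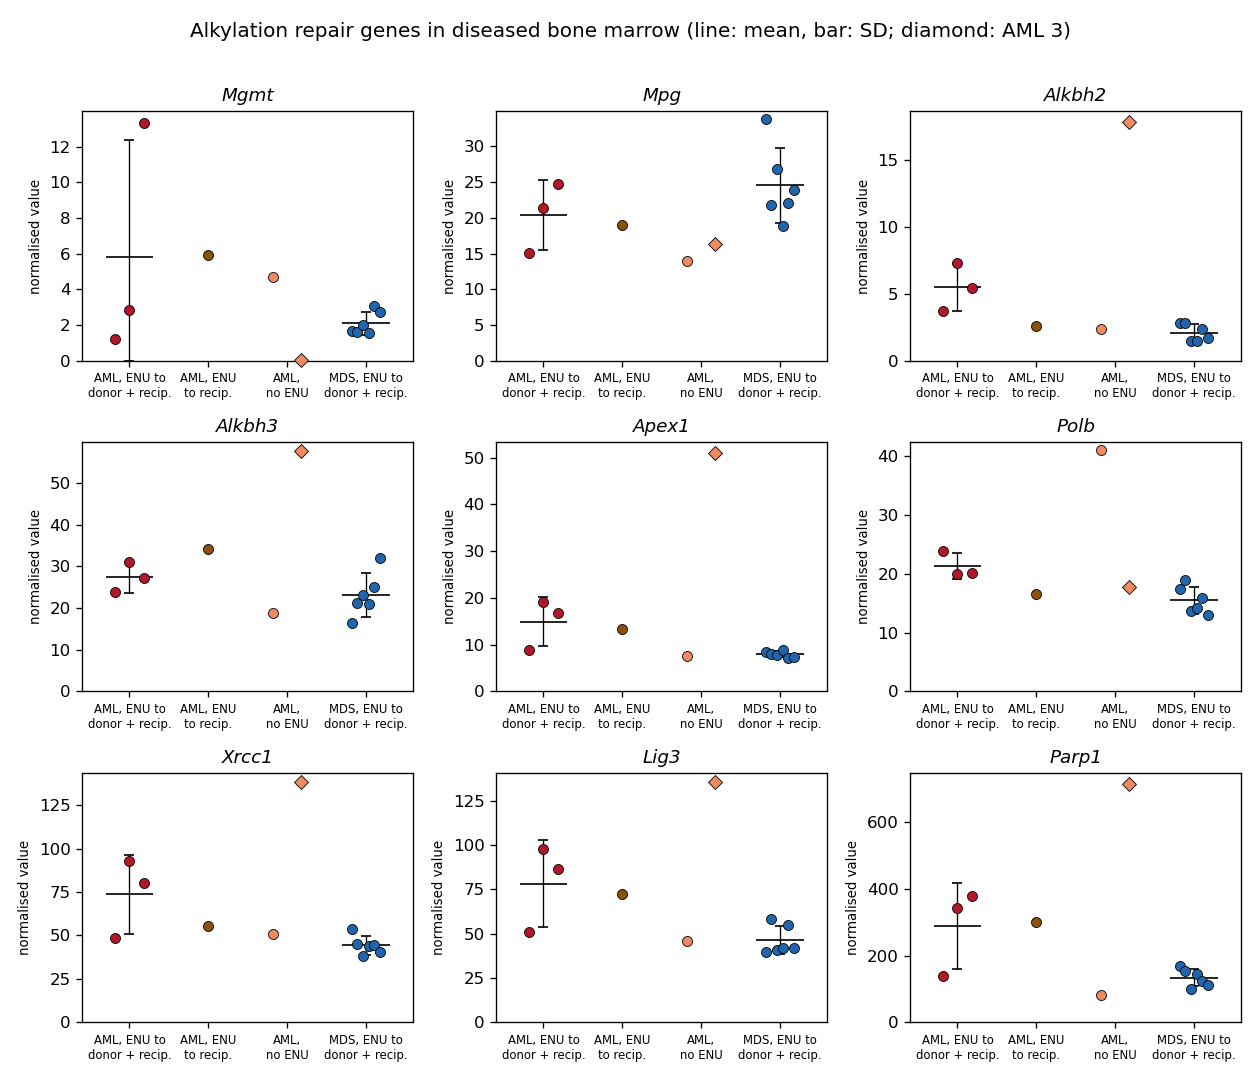
Normalised value of each of the 9 genes in bone marrow (vertical axis from 0) by disease and exposure (horizontal axis), 1 point per library, with the mean and SD where a group has 3 or more libraries; bars are cut at 0 and the diamond is AML 3. Parp1, Lig3, Xrcc1 and Apex1 sit above all MDS points in AML 3, 4, 5 and 6.

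Cell markers also differed between the AML libraries. The mean log2 level of the 9 members was 5.32 in AML 3, 5.10 in AML 5, 4.98 in AML 4 and 4.70 in AML 6, with AML 1 and 2 at 4.27 and 4.28, against 4.07 to 4.29 in MDS. Summed B cell markers ran from 50.6 to 2424.2 in AML, against 94.5 to 161.3 in MDS, summed T cell markers from 81.0 to 3754 in AML, against 55.2 to 128.6 in MDS, and summed erythroid markers (7 of 11 measured) from 371.6 to 5290.9 in AML, against 7062.6 to 23740 in MDS. AML 3, with the highest member level, had an erythroid level of 2.31 and a neutrophil level of 4.17 (mean log2). In AML 2, whose member level lay inside MDS, they were 5.13 and 9.32, against at least 8.40 and 10.74 in MDS. The part of cell makeup in these values was not tested. Without AML 3, 4 and 5, chosen after the data were seen for their B or T cell markers, no member passed and the log2 differences of Parp1, Lig3 and Apex1 were 0.19, 0.27 and 0.26. The same libraries had the highest member levels in AML, so leaving them out had to shrink these differences. That fit therefore cannot decide on cell makeup. Without AML 1, Lig3 (0.84, adjusted p = 0.032) and Xrcc1 (0.81, 0.034) passed, as did 21.9% of all genes, and without AML 2, Lig3 (0.87, 0.049) and Parp1 (1.31, 0.048) passed, as did 5.71% of all genes.

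Of 18 proliferation genes, 13 had negative log2 differences in AML against MDS (list level 6.38 to 7.88 in AML, against 7.48 to 8.18 in MDS). With that level as a covariate, also added after the data were seen, 20.6% of all genes passed, and 5 members did: Parp1 (1.51), Alkbh2 (1.44), Apex1 (1.29), Xrcc1 (0.95) and Lig3 (0.94).

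**Figure D3:**
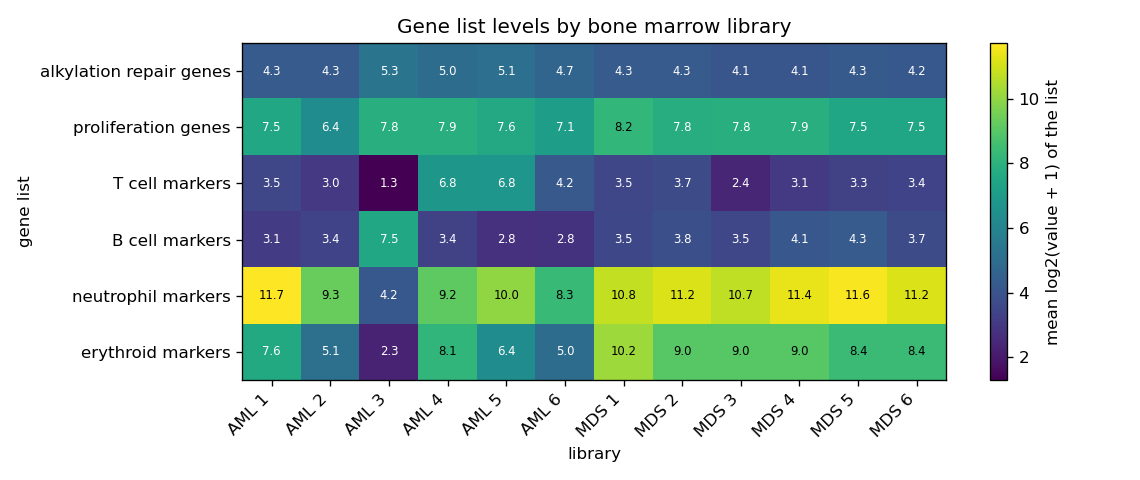
Mean log2(value + 1) of 6 gene lists (rows) in each of the 12 bone marrow libraries (columns), colour and figures giving the level. The members are highest in AML 3, where B cell markers are also highest and neutrophil and erythroid markers lowest, and next in AML 5 and AML 4, where T cell markers are highest.

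Restricting AML to the 3 mice with ENU to donor and recipient matches their exposure to MDS. Again 0 of 9 members passed by limma, with 2 members (Alkbh2 and Xrcc1) below an unadjusted p of 0.05, and 0% of 11275 genes passed, 14.8% of them being below the unadjusted threshold. Groups did not overlap for Alkbh2, Apex1 and Polb, all higher in AML, where 9.56% of genes did not overlap. Polb was at 23.9, 20.0 and 20.1 in AML 1, 4 and 5, against 19.0 at most in MDS. Its log2 difference was 0.44 (SE 0.26, adjusted p = 0.42).

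In stromal cells ENU against mock gave values that overlapped for every member. None of the 8 members that met the filter passed the limma test or an unadjusted p of 0.05, and 0% of 12089 genes passed, 2.58% being below the unadjusted threshold. No member had groups that did not overlap, where 7.07% of genes did.

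Mgmt was at 65.3, 58.2 and 74.5 TPM in ENU 1 to 3, against 64.4, 64.0 and 65.3 TPM in mock 1 to 3. The mock libraries fell inside the ENU range, and the log2 difference was 0.02 (SE 0.11, 95% interval -0.25 to 0.30). The SEs and intervals given for stromal cells come from the main fit, which did not pair the libraries. Mpg was at 25.7, 25.1 and 21.5 TPM in ENU, against 26.3, 25.6 and 27.3 TPM in mock, where ENU 1 lay between mock 2 and mock 1, with a log2 difference of -0.13 (95% interval -0.39 to 0.13). Within the same-numbered pairs, Mpg and Polb were lower in ENU in 3 of 3, and no other member kept 1 direction in all pairs. With the replicate block neither passed by limma (adjusted p = 0.63 for Mpg and 0.53 for Polb). The share of all genes with 1 direction in every pair is not given here, so the pair count is not read as an ENU effect. Polb was at 35.0, 36.6 and 39.9 TPM in ENU, against 38.2, 38.7 and 45.6 TPM in mock. Alkbh3, Polb, Xrcc1 and Lig3 had intervals within -0.40 to 0.37. Alkbh2 did not meet the filter, being at 0.538, 0.485 and 0.617 TPM in ENU, against 0.422, 0.589 and 2.25 TPM in mock.

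Apex1 and Parp1 varied by replicate number more than by exposure. Parp1 was at 48.8, 51.1 and 25.3 TPM in ENU, against 50.9, 46.4 and 27.6 TPM in mock, and Apex1 at 104, 107 and 88.6 TPM in ENU, against 122, 113 and 73.1 TPM in mock. Replicate 3 was the lowest of both groups for both genes. The proliferation list was also lowest there, at 4.74 in ENU 3 and 4.08 in mock 3, against 5.77 to 6.21 in the other 4 libraries, and its part in these values was not tested.

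**Figure D4:**
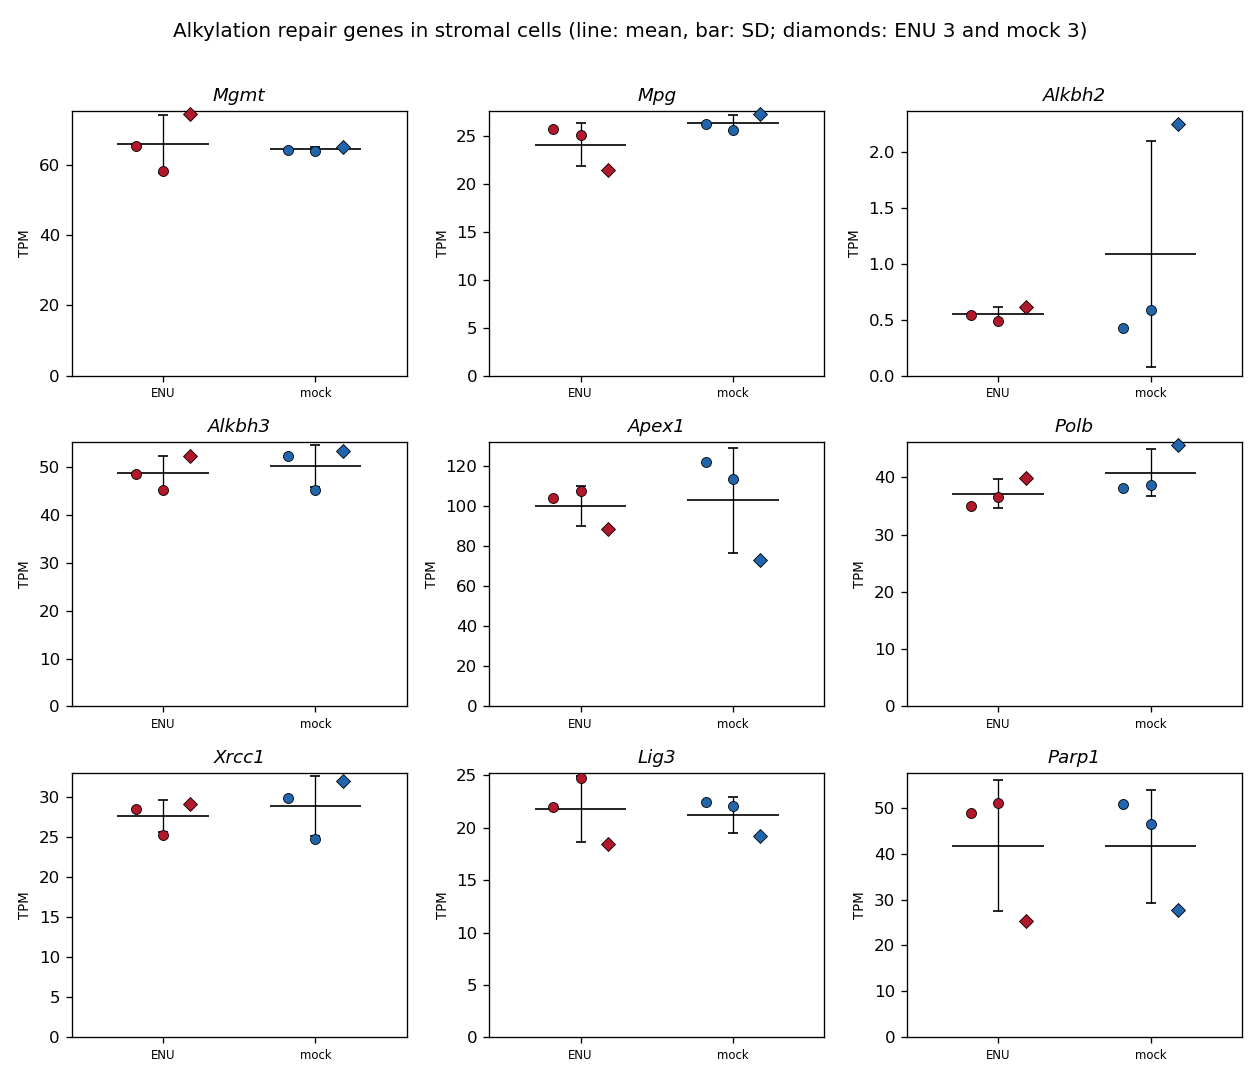
TPM of each of the 9 genes in stromal cells (vertical axis from 0) by exposure (horizontal axis), 1 point per library, with the mean and SD of 3 libraries; diamonds mark replicate 3. Parp1 and Apex1 are lowest in replicate 3 of both groups, and Mgmt is between 58.2 and 74.5 TPM throughout.

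**Figure D5:**
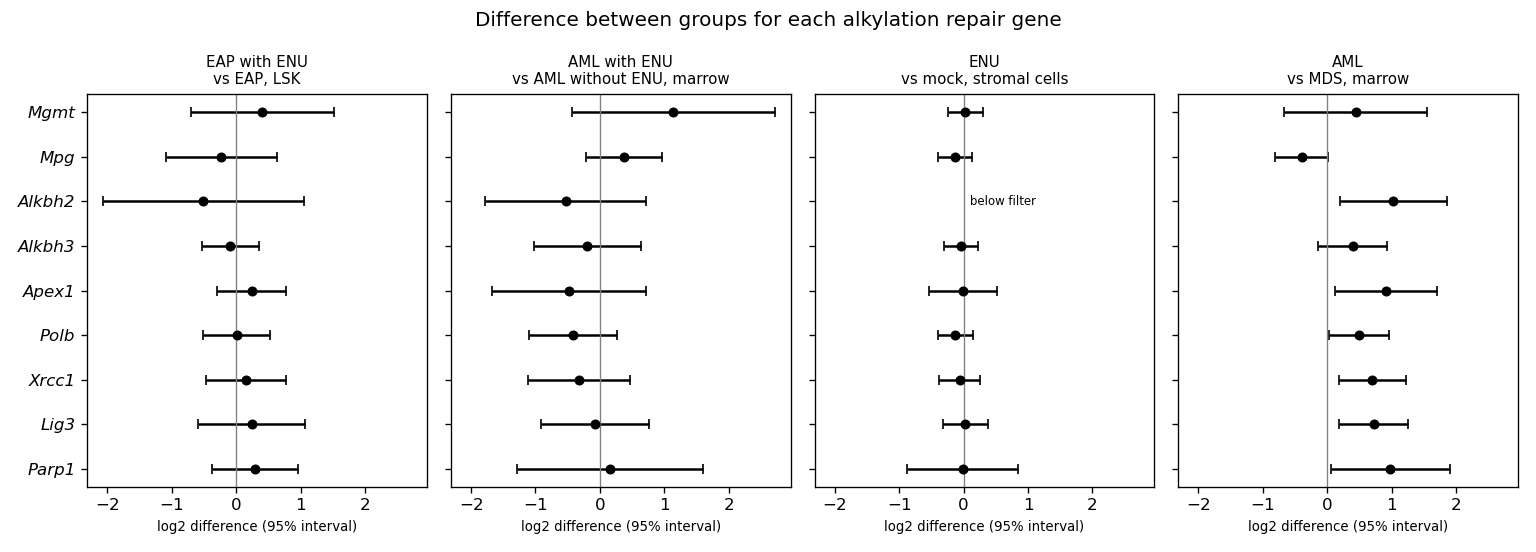
Log2 difference with its 95% interval (horizontal axis) for each member (vertical axis) in 3 comparisons by ENU and in AML against MDS. The stromal intervals come from the unpaired main fit. Every interval includes 0 in the 3 ENU comparisons, and in AML against MDS the intervals of 6 members lie above 0 before adjustment.

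Of the wider list of 51 alkylation and base repair genes, 49 were measured in LSK cells and marrow and 51 in stromal cells. Only AML against MDS had members past the threshold, 3 of 49 where 3.2% of all genes passed. These 3 are DNA glycosylases, which cut out damaged bases. Nthl1 was at 2.18 to 6.13 in AML, against 0.939 to 2.09 in MDS (log2 difference 0.99, adjusted p = 0.043). Neil1 was at 6.34 to 31.0 in AML, against 3.82 to 6.48 in MDS (1.37, adjusted p = 0.043), while Neil3 was at 42.1 to 84.6 in AML, against 87.2 to 151 in MDS (-0.80, adjusted p = 0.047). All 3 calls were lost with a pseudocount of 0.1, with the replicate block, without AML 3, 4 and 5 together, and without any single library other than AML 1 or AML 2.

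In the other 7 comparisons none of the wider list passed by limma, and up to 2 genes with the smallest p are given as not passing. For EAP with ENU against EAP these were Neil3 (-0.53) and Alkbh1 (-0.93), 1 of 49 being below an unadjusted p of 0.05 (5.26% of all genes). Alkbh1 was at 82.7 to 93.2 in EAP with ENU, against 98.2 to 265 in EAP, and did not overlap. That held for 5 of 49 genes of the wider list and 12.7% of all genes. Rev1 (-0.51) and Fto (-0.49) led for EAP with ENU against transplanted WT, with 0 below it (3.21% of all genes). For EAP against transplanted WT Alkbh8 (0.45) is given, with 0 below it (3.61% of all genes). Leading for transplanted WT against WT were Pold1 (1.21) and Alkbh8 (-0.62), with 3 of 49 below it (7.29% of all genes).

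In marrow Ogg1 (-0.84) and Tdp1 (0.77) led for AML with ENU against AML without, with 4 of 49 below the unadjusted threshold (11% of all genes). Ogg1 was at 11.1 to 16.9 in the 4 ENU libraries, against 24.1 and 25.1 in the 2 without, and did not overlap. The same was true of 2 of 49 genes of the wider list and 9.5% of all genes. Tdp1 (0.75) and Nthl1 (0.94) led for AML with ENU to donor and recipient against MDS, with 11 of 49 below it (14.8% of all genes). In stromal cells the leading genes were the translesion polymerases Polk (0.86) and Rev3l (-0.43), with 1 of 50 tested below it (2.58% of all genes). Polk was at 15.1, 18.2 and 16.2 TPM in ENU, against 5.74, 13.1 and 8.32 TPM in mock, and did not overlap. Here 3 of 50 genes of the wider list and 7.07% of all genes did not.

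By Pearson correlation of log2 values, the genes most like Mgmt over the 12 marrow libraries were Tsnax (0.95), L3mbtl3 (0.93), Zfp623 (0.93), Rps14 (0.93) and Pou6f1 (0.92). Over the 12 LSK libraries they were Ppapdc3 (0.94), Polr2m (0.93), Lipt2 (0.92), Eci2 (0.91) and Aldh1b1 (0.91). The lists share no gene, and the lowest Mgmt library was AML 3 in marrow and EAP 2 in LSK cells. These are descriptions over libraries that share their scaling.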

How the data were processed

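RNA was measured in 30 mouse libraries made with a stranded mRNA kit, per the labels' protocols. Per the submitters' processing notes the tools were bcl2fastq, FastQC, TopHat, SAMtools and edgeR with mm10. Versions, annotation and scaling: not given in the sources used here. Both the LSK and marrow files deposited by the authors are named CPM, but their columns sum to unequal totals, so each was treated as a signal normalised by the authors; the log-scale test planned for CPM was still used. Stromal cells have TPM, which the authors deposited. In marrow 155 alias rows with identical values were merged.

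Groups came from the labels. Each of 8 comparisons was fitted by limma 3.58.1 under R 4.3.3 (moderated with a mean trend) to log2(value + 1). In the main fits all libraries of a table entered and shared 1 estimate of the spread per gene, also those outside the compared groups. Genes entered if they reached 1 in at least the number of libraries in the smaller group, and p-values were adjusted by Benjamini-Hochberg over all of them, at a threshold of 0.05. Differences are on this scale, which understates changes of low genes. The fit was tested on simulated data. Marrow reads were recovered from the spacing of values, within 0.05 of a read for 99.99 to 100% of them, and no count test was run on them. Transcript lengths come from the longest coding GENCODE transcript. Python 3.11.15, pandas 2.3.3 and matplotlib 3.10.9 were used.

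The members and lists were chosen with earlier results of these data known. All 9 members are named throughout; of the wider list up to 6 passing genes are named, or the 2 with the smallest p, 1 of which is not reported here. For Mgmt, 5 genes were named, those with the highest correlation and a mean of 5 or more. Alternatives were another pseudocount, no filter, rescaling, other sets of groups, the replicate block and leaving out each library. Added after seeing the data were fits without, or with a term for, libraries that stand apart, and a proliferation covariate. A fit without AML 1 and AML 3 was also run and set aside, because AML 1 had been picked for its likeness to MDS, which is a choice by outcome; the fit without AML 3, 4 and 5 replaced it with those values already known. Same-numbered stromal libraries deviated together (r of 0.50, 0.67 and 0.72), so the numbers were taken as pairs there, from the data and not from a label.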

Additional observations from a re-analysis of the deposited data

Results flagged for a closer look

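Among the 6 AML libraries, 3 members had a single library far from the others relative to the group's range. Alkbh2 was at 17.8 in AML 3, with the next library at 7.31. Apex1 was at 51.1 in AML 3, with the next at 19.2. Polb was at 41.0 in AML 2, with the next at 23.9. These were 3 of 27 tests over AML, AML with ENU and MDS, and 0 were in MDS. The gaps were taken on unlogged values and were not checked on the log2 scale used elsewhere. For a single test chance flags about 1 in 20. The AML with ENU set lies inside AML and several members were highest in AML 3. The tests are therefore not independent, and their count cannot be judged against that rate.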

How the results depend on the processing

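Over all genes, LSK comparisons other than transplanted WT against WT had 9 calls at most in any alternative fit. Stromal cells had 3 at most, and AML with ENU to donor and recipient against MDS had 0 except without AML 1. A count of 0 members was close to fixed in advance in such fits, so it says little about the members. Leaving out the AML library with ENU to the recipient only was counted 2 times. With these limits, the count of 0 members passing held in 104 of 108 alternative fits of the 8 comparisons. The exceptions were AML with ENU against AML without (0 to 4 when each library was left out, 4 without AML 2) and AML against MDS (0 to 2 when each library was left out, 5 with the proliferation covariate). Of 961 alternative fits of single members, 871 kept their direction and side of the threshold, 77 changed sign below it, 13 passed, and none reversed a called value. Keeping the side of the threshold has the same limits as the count of 0 members. Of the 49 measured genes of the wider list, AML against MDS had 0 calls with a pseudocount of 0.1 or with the replicate block. It also had 0 without AML 3, 4 and 5. When each library was left out it had 15 without AML 1 (21.9% of all genes), 5 without AML 2 (5.71%) and 0 otherwise. With the proliferation covariate it had 18 (20.6% of all genes). Transplanted WT against WT had 3 without the LSK libraries that stand apart (490 of 11727 genes) and 2 with a term for them (275 of 11730). AML with ENU to donor and recipient against MDS had 0 to 5, the 5 without AML 1 (682 of 11275 genes). For AML with ENU against AML without no wider-list count is given, since leaving out AML 2 leaves 1 library without ENU. These counts are not read as results about the list. Over all genes, AML against MDS had 361 calls, 145 with a pseudocount of 0.1 and 141 with the replicate block, AML with ENU against AML without had 11 and 2309 without AML 2, AML with ENU to donor and recipient against MDS had 0 and 682 without AML 1, and transplanted WT against WT had 3 and 490 without the LSK libraries that stand apart. The cause of these shifts was not tested. The replicate block changed no member's call, including in stromal cells, where the count stayed at 0. In LSK cells and marrow the numbers did not pair the libraries. Depth limits Mgmt and Alkbh2 most: Mgmt rested on 1 to 298 reads per marrow library.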
